A study of Rattus norvegicus with 18 samples.

Results

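miR-490 is the microRNA encoded within Chrm2, the gene of the M2 muscarinic acetylcholine receptor. Its hairpin gives 2 mature products, rno-miR-490-5p and rno-miR-490-3p (rno for Rattus norvegicus, left out below), and these are 2 of the 599 mature rat miRNAs listed in each library. Both were picked by name, with their deposited normalized read counts in all libraries already known. Their levels and the differences between groups are therefore given as a description with no test of their own.

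Small RNA of rat heart was sequenced in 18 libraries in 3 groups of 6. The QDG group was the spontaneously hypertensive rat (SHR) strain given QDG, labelled as treatment. The SHR group was the same strain without QDG, labelled hypertension; the design text names NS as the other thing given, and whether WKY rats received it too is not clear from it. WKY was the Wistar Kyoto strain, labelled normal, the normotensive strain to which SHR is commonly compared. QDG and NS are not spelled out in the sources used here, and age, sex, dose, duration and the part of the heart taken are not given there either. QDG differs from SHR by treatment alone as labelled, whereas strain, blood pressure and treatment cannot be told apart between either of these groups and WKY.

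A miRNA gene is transcribed into a hairpin, and cutting of the hairpin leaves a duplex of its 2 arms. As a rule 1 arm enters an Argonaute protein as the guide that recognises messages through its seed, bases 2 to 8, and the other is mostly degraded. The receptor made from Chrm2 receives acetylcholine from the vagus nerve, slows the heartbeat through an inhibitory G protein, and is more abundant in atria and the conduction system than in ventricles. Messages of Chrm2 were not measured in these small RNA libraries.

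The sequences are shown because the 2 arms of this hairpin stood in a different ratio in the 2 strains. In RefSeq, on build GRCr8, the hairpin lies at chr4:66014586-66014669 on the plus strand, inside Chrm2 and on the same strand, and is the 1 miRNA gene annotated there. Whether that place is exonic or intronic in the rat was not analysed here. The hairpin has 84 bases, and its capitals mark the mature arms.
Mir490: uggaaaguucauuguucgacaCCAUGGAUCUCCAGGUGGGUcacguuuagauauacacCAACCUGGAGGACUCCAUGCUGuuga
The mature arms have 20 and 22 bases, at chr4:66014607-66014626 and chr4:66014644-66014665, and capitals mark the seed.
miR-490-5p: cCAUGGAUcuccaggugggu
miR-490-3p: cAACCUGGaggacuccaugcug
Among the 693 mature rat miRNAs of the RefSeq table, 0 others had the seed CAUGGAU of miR-490-5p and 0 others the seed AACCUGG of miR-490-3p. The longest stretch over which the arms can pair without a break, by Watson-Crick pairs, was 8 bases, marked in capitals in the next 2 lines, and it covers most of the 3p seed.
miR-490-5p: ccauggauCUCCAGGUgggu
miR-490-3p: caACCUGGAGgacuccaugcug

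Levels are given as RPM, the deposited normalized read count, that is, the miRNA's reads over a divisor specific to each library, times 1000000. Reads over all miRNAs numbered 6805472 to 8574447 in QDG, 6420666 to 10169581 in SHR and 6465025 to 9463554 in WKY. The labelled tissue fitted its markers: heart muscle miRNAs such as miR-208a-3p, encoded in the alpha-myosin gene Myh6, and miR-499-5p, encoded in Myh7b, averaged 2116 and 23968 RPM in QDG, 1933 and 22883 RPM in SHR and 2201 and 25965 RPM in WKY. None of the libraries was identical to another, and none was left out of the results below unless stated.

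miR-490-3p was the abundant arm and differed little between the groups. It had 629 to 696 RPM in QDG with a median of 665 RPM, 571 to 720 RPM in SHR with a median of 663 RPM, and 536 to 732 RPM in WKY with a median of 638 RPM. All 3 ranges overlapped, and the QDG range lay inside both of the others. The means were 664 ± 29.9, 655 ± 52.8 and 639 ± 66.2 RPM in QDG, SHR and WKY (SD, n = 6 each). The lowest library was WKY replicate 1 and the highest WKY replicate 5, so the extremes came from the same group. In every library the arm ranked between 73rd and 85th of the 599 miRNAs by RPM.

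miR-490-5p was scarce and lower in both SHR-strain groups. It had 9.02 to 12.7 RPM in QDG with a median of 9.98 RPM, 8.57 to 11.5 RPM in SHR with a median of 9.51 RPM, and 11.7 to 20.8 RPM in WKY with a median of 15.8 RPM. Every SHR library lay below every WKY library, although the gap was narrow: SHR replicate 1 had 11.5 RPM and WKY replicate 1 had 11.7 RPM. Of the QDG libraries, 5 lay below every WKY library and QDG replicate 5, at 12.7 RPM, lay above WKY replicate 1. The means were 10.5 ± 1.41, 9.75 ± 1.23 and 16.4 ± 3.55 RPM in QDG, SHR and WKY (SD, n = 6 each). The order of the levels was WKY, QDG and SHR, of which the neighbours QDG and SHR did not differ beyond their spread.

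**Figure D1:**
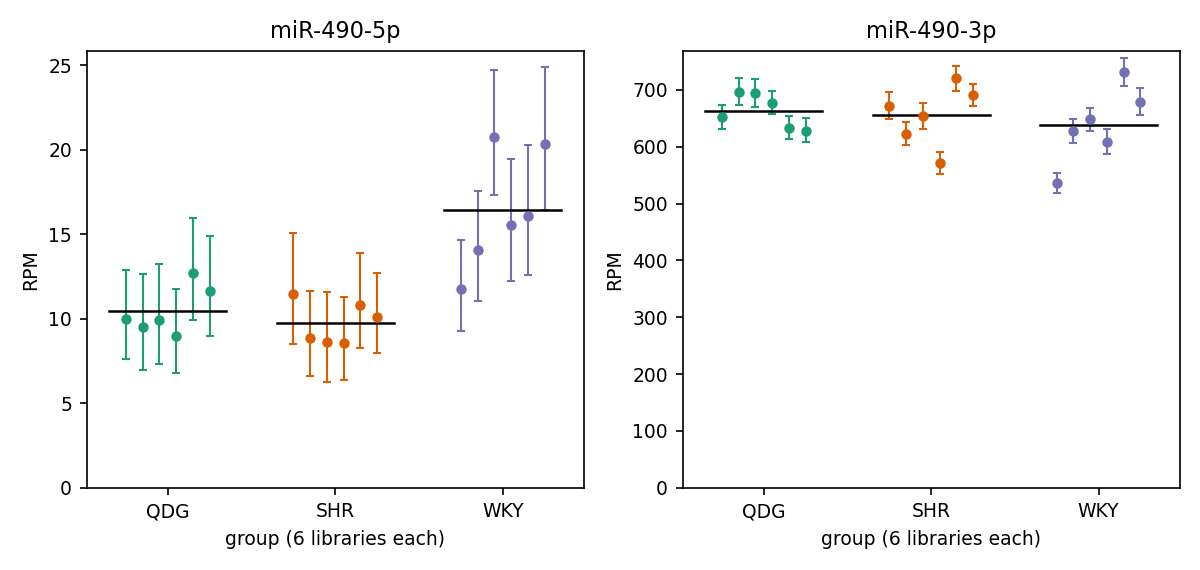
Level of miR-490-5p (left) and miR-490-3p (right) in RPM in each of the 6 libraries of QDG, SHR and WKY, with the 95% exact Poisson interval of its reads as error bar and the group mean as a black line. The 5p arm sits at 8.57 to 12.7 RPM in the QDG and SHR libraries and at 11.7 to 20.8 RPM in the WKY libraries, while the 3p arm overlaps in all groups.

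Few reads stood behind the 5p arm, 46 to 73 per library in QDG, 44 to 75 in SHR and 72 to 126 in WKY. Its SD within a group was 1.01 times that expected from counting alone in QDG, 0.931 times in SHR and 1.99 times in WKY. In the SHR strain the spread of this arm was thus about the size that the number of reads sets. For SHR replicate 1 the 95% exact Poisson interval was 8.53 to 15.1 RPM and for WKY replicate 1 it was 9.27 to 14.7 RPM, so these libraries could not be told apart at this depth. By contrast 2942 to 5113 reads per library stood behind the 3p arm, and its SD was 2.69, 4.88 and 5.95 times the counting SD in QDG, SHR and WKY. Intervals cover counting error only, since reads after amplification are not independent molecules.

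SHR against WKY sets the hypertensive strain beside the normotensive one. Here miR-490-5p had a log2 fold change of -0.68 ± 0.14 (SE), 0.624-fold on the scale of RPM plus 1. Its mean RPM differed by -40.6%, and 6 of 6 SHR libraries lay below the WKY mean, as they lay below the lowest WKY library. miR-490-3p had 0.04 ± 0.09 (SE), with a 95% interval of -0.14 to 0.22. With limma's adjusted p under 0.05 as the call, 1 of the 2 arms was called, the 5p arm, against 23.2% of the 410 miRNAs tested in either direction and 15.1% in the lower direction. Groups that did not overlap were found for 10.2% of the tested miRNAs, 6.83% in the lower direction. These calls were known when the arms were chosen, and nothing is read from them. The balance of all calls depended on the scaling, with 33 higher and 62 lower here, and 46 and 47 under RLE scaling.

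The QDG against WKY comparison gave a similar picture from the same WKY libraries. miR-490-5p had a log2 fold change of -0.59 ± 0.14 (SE), a difference in mean RPM of -36.2%, with 6 of 6 QDG libraries below the WKY mean. For miR-490-3p the value was 0.06 ± 0.09 (SE), with a 95% interval of -0.12 to 0.24. Again 1 of the 2 arms was called, against 17.8% of all tested in either direction and 10.5% in the lower direction. Neither arm's range stood free of the WKY range here, while 8.05% of all tested miRNAs had no overlap, 4.15% in the lower direction. All calls divided into 30 higher and 43 lower, and into 42 and 40 under RLE scaling. Since both comparisons share the WKY libraries, they are not separate observations of the WKY level.

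QDG against SHR asks what the treatment changed within the hypertensive strain. miR-490-5p had 0.09 ± 0.14 (SE), with a 95% interval of -0.19 to 0.38, and miR-490-3p had 0.02 ± 0.09 (SE), with an interval of -0.16 to 0.20. The sign of the 3p value turned under other scalings, to between -0.03 and 0.05 over the alternatives tried. In fold terms, on the scale of RPM plus 1, the interval allows miR-490-5p between 0.874 and 1.30 times the SHR value. For miR-490-3p it allows between 0.897 and 1.15 times. Neither arm was called, nor was any of the 410 miRNAs (0% called by limma, 15 at an unadjusted p under 0.05, 0 by edgeR and 0 by DESeq2). The intervals do not show that the levels were alike.

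**Figure D2:**
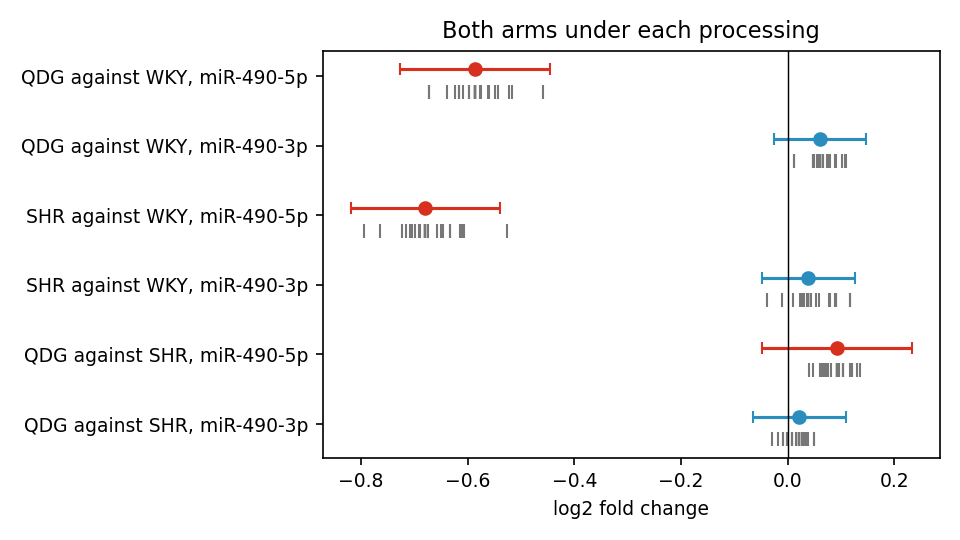
Log2 fold change of each arm in each comparison as reported (dot, with its SE as bar; red for miR-490-5p, blue for miR-490-3p) and under every processing alternative (grey ticks). The 5p values lie at -0.79 to -0.46 in both comparisons with WKY, and the other values lie near 0.

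The ratio of the arms uses reads of 1 hairpin within 1 library, so it does not depend on how libraries are scaled. The annotated arms have 20 and 22 bases, and the lengths of the reads themselves were not examined. miR-490-3p exceeded miR-490-5p in RPM by 49.9 to 75.2 times in QDG with a median of 67.4 times, by 58.6 to 75.7 times in SHR with a median of 67.4 times, and by 31.2 to 45.6 times in WKY with a median of 42.0 times. Neither the QDG nor the SHR libraries overlapped with the WKY libraries, including QDG replicate 5, whose 5p level alone did overlap. As a share of the reads of both arms, the 5p arm held 1.56 ± 0.270% in QDG, 1.47 ± 0.122% in SHR and 2.50 ± 0.420% in WKY (SD, n = 6 each).

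**Figure D3:**
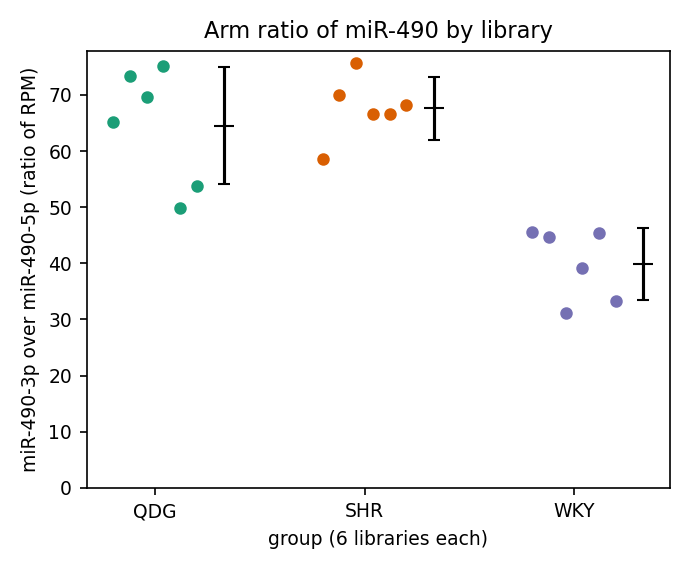
Ratio of miR-490-3p to miR-490-5p in RPM in each library (coloured points) with the group mean and SD (black). The QDG and SHR libraries lie between 49.9 and 75.7, all above the WKY libraries at 31.2 to 45.6.

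On the log2 scale, with 1 added to each RPM, the ratio of 3p to 5p was higher by 0.72 ± 0.10 in SHR than in WKY and by 0.65 ± 0.13 in QDG than in WKY (SE of the difference of means, n = 6 each). Between QDG and SHR the difference was -0.07 ± 0.10. With no pseudocount, an alternative chosen after seeing the data, the ratio was 1.71 times as high in SHR as in WKY and 1.62 times as high in QDG as in WKY. The lower 5p level in SHR and QDG was thus also lower relative to its own partner arm.

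Other hairpins were examined in the same way. Both arms were tested for 126 hairpins, matched by name, and the median size of the change in arm ratio between SHR and WKY was 0.15 on the log2 scale. With 1 added to each RPM, miR-490 had the largest of the 126 changes in SHR against WKY. The next were miR-379 at 0.70 and miR-10b at 0.68, hairpins whose 3p arms averaged only 1.28 and 0.902 RPM, so that few reads define their ratios. The added 1 also understates the changes of arms this scarce. The ranks were not repeated with another pseudocount, so 1st place among all 126 may depend on it. Of the 66 hairpins in which both arms averaged at least 10 RPM, miR-490 again ranked 1st, and miR-361 followed at -0.47. miR-490-5p itself lay near that cutoff, with means of 12.2 RPM over all libraries, 9.75 RPM in SHR and 16.4 RPM in WKY. No other cutoff was tried. For QDG against WKY it ranked 3rd of 126, behind miR-379 and miR-483, and 1st of the 66. In QDG against SHR it ranked 71st of 126. Arm ratios without overlap between the groups were found for 0.794% of the 126 hairpins in SHR against WKY, which was miR-490 alone, and for 2.38% in QDG against WKY, which were miR-490, miR-29a and miR-509. In QDG against SHR there were none (0%). These ranks describe the same values that led to the choice of miR-490 and carry no test.

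**Figure D4:**
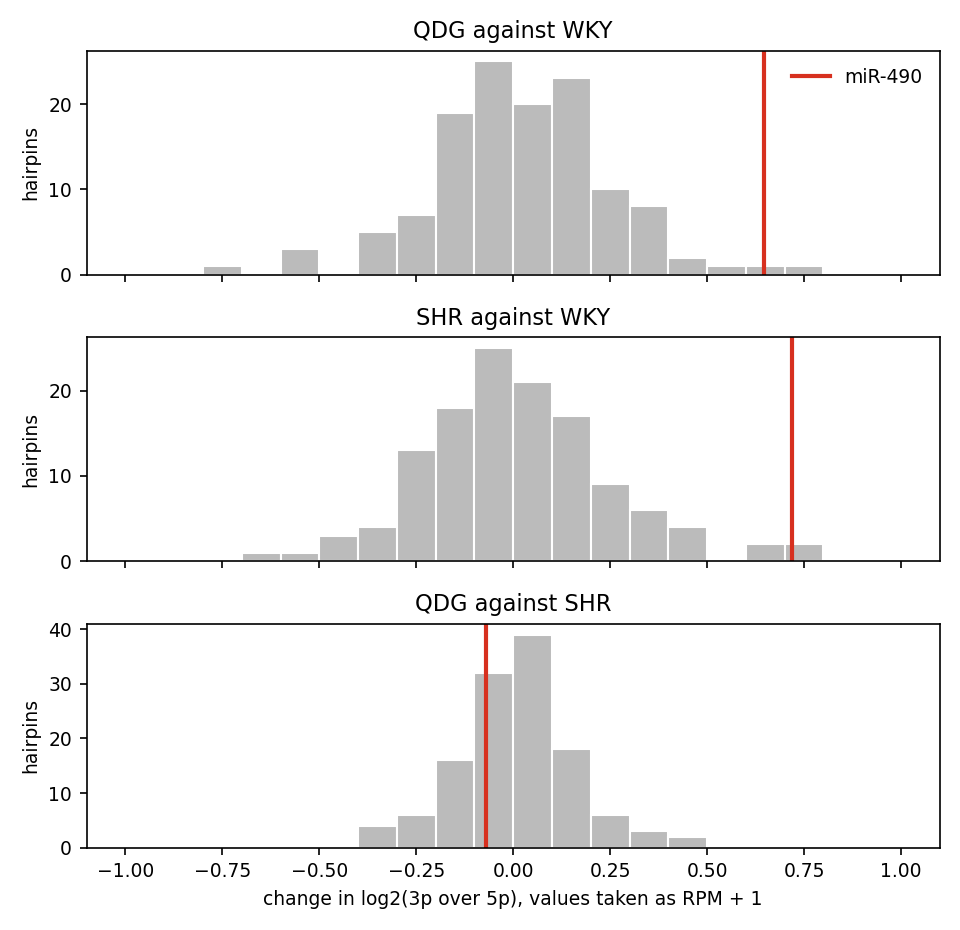
Number of hairpins (of 126 with both arms tested) by change in log2 ratio of 3p to 5p, with 1 panel per comparison and miR-490 as a red line. The line stands at 0.65 in QDG against WKY and 0.72 in SHR against WKY, at the edge of the distribution, and at -0.07 in QDG against SHR, near its middle.

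Unequal arms in themselves were common. The minor arm of miR-490 held 1.84% of the mean RPM of both arms, and it ranked 37th of 126 by the size of the log2 ratio. The 3p arm was the higher one in 56 of the 126 hairpins.

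Within a group, libraries with more of 1 arm did not reliably have more of the other. Pearson's r between log2 RPM of the arms was -0.82 in QDG, 0.75 in SHR and 0.67 in WKY (n = 6 each, two-sided exact permutation p = 0.0514, 0.0833 and 0.129, adjusted over the 3 groups 0.125, 0.125 and 0.129). Spearman's rho was -0.77, 0.77 and 0.71 in the same order (exact permutation p = 0.103, 0.103 and 0.136, adjusted 0.136 in each). Without the 2 libraries whose 3p level lay farthest from the median, r was -0.76, 0.65 and 0.78 over the 4 left. None passed the threshold, and the difference in sign between QDG and the other groups was not tested. At 44 to 126 reads, counting error of the 5p arm enters each of these values.

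The miRNAs most like each arm in level were found by Pearson's r of log2(RPM + 1) over the 18 libraries, among 248 other miRNAs averaging at least 10 RPM. For miR-490-5p they were miR-210-3p, the miRNA induced by hypoxia (r = 0.87), let-7e-5p (0.86), miR-322-3p (0.85), let-7d-5p (0.84) and let-7a-5p (0.81), and its own partner ranked 160th (0.08). miR-210-3p averaged 268 ± 11.9 RPM in QDG, 271 ± 14.1 RPM in SHR and 394 ± 63.6 RPM in WKY (SD, n = 6 each). miR-322-3p, of a cluster on the X chromosome, averaged 297 ± 13.8, 300 ± 18.4 and 404 ± 37.3 RPM in the same order. The means of all 5 were lower in both SHR-strain groups than in WKY, so r over the 18 libraries follows the difference between groups. For miR-490-3p the most similar were miR-143-5p, the minor arm of a smooth muscle miRNA (r = 0.76), miR-24-3p (0.72), miR-24-1-5p (0.70), miR-24-2-5p (0.68) and miR-362-3p (0.67).

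After the group means were taken out, so that only the variation within groups remained, other miRNAs led for miR-490-5p. They were miR-24-3p (r = 0.79), miR-22-3p (0.79), miR-149-5p (0.77), miR-126a-3p (0.70) and miR-330-5p (0.69), with miR-490-3p in 55th place (0.46). For miR-490-3p they were miR-143-5p (0.77), miR-210-3p (0.76), miR-24-3p (0.73), miR-125b-5p (0.72) and miR-339-3p (0.71). The points share their libraries and the scaling of each, and the values are descriptions. WKY replicate 1 was the lowest WKY library for both arms. Its reads also differed more from every other WKY library than those libraries did from each other. These r were not repeated without it, so they may rest in part on that library.

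Other miRNAs that lie in genes of neurotransmitter receptors were set beside miR-490. Of 12 listed, those in the GABA receptor gene Gabre and the serotonin receptor gene Htr2c, 5 were in the table and 4, all of Gabre, were tested. Of these 4, 2 rose and 0 fell in SHR against WKY, with a median log2 fold change of 0.63 against -0.07 over all 410 tested, of which 8.05% rose and 15.1% fell. miR-452-3p averaged 8.66 ± 1.55 RPM in QDG, 8.96 ± 1.57 RPM in SHR and 4.81 ± 1.70 RPM in WKY (SD, n = 6 each). This list was chosen with earlier results of these data known, so the p-values of its members are descriptions, not tests. Both arms of miR-452 rose in SHR against WKY, by 0.92 ± 0.16 for miR-452-5p and 0.81 ± 0.17 for miR-452-3p (log2, SE, limma adjusted p = 0.000118 and 0.000687). In these libraries the arms of this hairpin thus moved the same way. Their neighbour miR-224-5p had 0.46 ± 0.21 and miR-224-3p 0.40 ± 0.21 (limma adjusted p = 0.118 and 0.181). For QDG against WKY the count was likewise 2 higher and 0 lower, with a median of 0.54 against -0.06 over all tested, of which 7.32% rose and 10.5% fell. For QDG against SHR it was 0 and 0 (0% of all tested), with a median of -0.12 against 0.02.

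Of the 6 miRNAs encoded in the heart myosin genes, 5 were tested, and 1 rose in SHR against WKY, miR-208b-3p of the beta-myosin gene Myh7, against 23.2% of all tested called in either direction. It averaged 255 ± 41.2 RPM in QDG, 288 ± 58.6 RPM in SHR and 157 ± 41.2 RPM in WKY (SD, n = 6 each). miR-499-5p, miR-499-3p, miR-208a-3p and miR-208a-5p had log2 fold changes of -0.19, -0.11, -0.16 and -0.20 in the same comparison and were not called. The median of the 5 was -0.16 in SHR against WKY (-0.07 over all tested), -0.03 in QDG against WKY (0.01 under RLE scaling, and -0.06 over all tested) and 0.08 in QDG against SHR (0.02 over all tested). Of the 5, 1 rose and 0 fell in QDG against WKY, against 17.8% of all tested called, and 0 were called in QDG against SHR.

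Among 4 miRNAs reported to repress the pacemaker channels Hcn2 or Hcn4, 1 rose and 1 fell in SHR against WKY, where 8.05% of all tested rose and 15.1% fell. miR-1-3p, the abundant muscle miRNA, had 0.74 ± 0.08, and miR-370-3p, of the imprinted Dlk1-Dio3 locus, had -0.53 ± 0.15 (log2, SE, limma adjusted p = 3.34e-08 and 0.0128). These p-values too are descriptions, since the list was chosen with earlier results of these data known. miR-370-3p was scarce, at 1.83 to 2.68 RPM in QDG, 1.49 to 2.75 RPM in SHR and 2.22 to 4.47 RPM in WKY. miR-133a-3p and miR-423-5p had -0.01 and -0.08 in the same comparison and were not called. The median of the 4 was -0.05 in SHR against WKY, beside -0.07 over all tested, and between 0 and 0.03 under the other scalings. In QDG against WKY it was -0.07, beside -0.06 over all tested, with 1 higher and 0 lower where 17.8% of all tested were called. In QDG against SHR it was -0.01, beside 0.02, with 0 called.

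A longer list held 43 miRNAs in introns of other protein-coding genes, of which 41 were tested. In SHR against WKY 4 rose and 3 fell, beside 23.2% called of all tested in either direction, with a median of 0.01 beside -0.07. Under RLE scaling 7 rose and 2 fell, where 46 rose and 47 fell of all tested. The risers were the 3p and 5p arms of miR-378a, in Ppargc1b (log2 0.45 for miR-378a-3p and 0.37 for miR-378a-5p), miR-204-5p of Trpm3 (0.50) and miR-218a-5p of the Slit genes (0.33). Those that fell were miR-26b-5p (-0.30), miR-30e-5p (-0.28) and miR-30c-1-3p (-0.45). In QDG against WKY 5 rose and 1 fell, where 17.8% of all tested were called, with a median of -0.04 that was 0.01 under RLE scaling. These counts moved with the scaling, to 7 and 2 under TMM, 7 and 1 under RLE, and 5 and 4 when the 10 most abundant miRNAs were left out of the scaling. In QDG against SHR 0 were called, with a median of 0.02.

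Whole tissue was sequenced, so fewer cells of a type and less RNA per cell cannot be told apart, for miR-490 as for the rest. Chrm2 is active in heart muscle, in nerve cells and in smooth muscle. The marker counts that follow stand against 8.05% of all tested that rose and 15.1% that fell in SHR against WKY, and 7.32% and 10.5% in QDG against WKY. Of 9 heart muscle markers 2 rose and 0 fell in SHR against WKY, and their summed level was 161534 to 212691 RPM in QDG, 180468 to 206652 RPM in SHR and 144392 to 175770 RPM in WKY. Much of these sums was miR-1-3p, a riser, with means of 114140, 117240 and 70589 RPM in the same order. The median log2 fold change of the 9 was -0.11 in SHR against WKY, beside -0.07 over all tested. Of 11 tested neuronal markers 2 rose and 1 fell (3 and 1 under RLE scaling), with sums of 1596 to 1922 RPM in QDG, 1539 to 1964 RPM in SHR and 1437 to 1781 RPM in WKY. The risers were miR-132-3p (log2 0.70 in SHR against WKY) and miR-218a-5p (0.33), and miR-129-5p fell (-0.55). miR-124-3p, the defining marker of neurons, was scarce and was not called in either comparison with WKY. It averaged 0.675 ± 0.439, 0.786 ± 0.363 and 1.13 ± 0.446 RPM in QDG, SHR and WKY (SD, n = 6 each). Of 4 smooth muscle markers 0 were called, and their sums were 53819 to 75150 RPM in QDG, 44421 to 65776 RPM in SHR and 50015 to 75140 RPM in WKY. Counts in QDG against WKY were the same for these 3 lists, and 0 were called in QDG against SHR.

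Markers of other cell types were listed too, for which the same shares of all tested apply, 23.2% called in SHR against WKY and 17.8% in QDG against WKY. Of 2 endothelial, 4 red blood cell and 1 skeletal muscle markers 0 were called in SHR against WKY, and of 5 leukocyte markers 1 rose, miR-155-5p (2 under RLE scaling). Among leukocyte markers 2 rose in QDG against WKY, miR-155-5p and miR-142-3p, and 0 of the other 7 were called. In QDG against SHR 0 of all these were called. The endothelial sums were 115468 to 129834 RPM in QDG, 114087 to 126819 RPM in SHR and 88331 to 127217 RPM in WKY, and the leukocyte sums 1184 to 1433, 1223 to 1407 and 1094 to 1563 RPM in the same order. For red blood cells the sums were 4261 to 5727, 4373 to 6058 and 3760 to 5778 RPM, and for skeletal muscle 494 to 658, 467 to 771 and 547 to 994 RPM. No marker in the table was at 0 in every library. The part of any of these cell types in the lower miR-490-5p was not tested.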

How the data were processed

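The members and all lists were chosen with earlier results of these data known. Heart RNA was taken up in Trizol and made into small RNA libraries with a NEB kit, per the labels' protocols. Tools named in the submitters' processing notes are FastQC, limma and TopHat2; the genome build, the miRNA annotation and how reads that fit several miRNAs were counted are not stated there. The deposited column is a normalized read count (per the file headers), handled as a signal per mature miRNA. Within a library all values were whole multiples of 1 step: 10782 of 10782 came out within 0.01 of a whole read. Sums exceed 1000000, since each divisor was smaller than the reads over all miRNAs.

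Groups and replicate numbers came from the library titles. The labels do not say that each library is a different rat, so p-values measure the spread between these libraries, which may in part be technical. The planned test for normalized values was used: limma 3.58.1 in R 4.3.3 on log2(RPM + 1), with a variance trend and robust moderation, all 18 libraries together and no covariate. The filter asked for 1 RPM or more in 6 or more libraries and kept 410 of 599 miRNAs; p-values were adjusted by Benjamini-Hochberg over these, with a threshold of 0.05. A pseudocount of 1 understates changes of scarce miRNAs. On the recovered reads edgeR 4.0.16 and DESeq2 1.42.0 called 89 and 96 miRNAs in SHR against WKY, where limma called 95. Other alternatives changed the scaling, pseudocount, filter, libraries or block. The fits were tested on simulated data.

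Named were both arms, the 5 miRNAs most like each, and the tested members of the receptor, myosin and pacemaker lists. Members of other lists and other hairpins were named after their values were seen. Of the 599 names 543 matched RefSeq.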

Additional observations from a re-analysis of the deposited data

How the results depend on the processing

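The call of miR-490-5p, its direction and the absence of a call for miR-490-3p held in both comparisons with WKY under all 30 alternatives tried for each. Some of these left the fold change itself as it was: other filters, the replicate block, fitting the compared groups alone, and leaving out a library of the uncompared group. The calls were known when the arms were chosen, and nothing is read from their persistence. The fold change of miR-490-5p in SHR against WKY was -0.79 to -0.53 under the 12 alternatives of scaling, test, pseudocount, filter, block or samples, and -0.76 to -0.61 with 1 library left out, the ends being without WKY replicate 1 and without WKY replicate 3. In QDG against WKY the ranges were -0.67 to -0.46 and -0.67 to -0.52. For miR-490-3p they were -0.04 to 0.12 and -0.01 to 0.08 in SHR against WKY, and 0.01 to 0.11 and 0.01 to 0.10 in QDG against WKY, so its sign is not settled in the first. The difference in arm ratio between SHR and WKY was 0.57 with a pseudocount of 5 and 0.65 to 0.76 with 1 library left out, and between QDG and WKY 0.52 and 0.58 to 0.71. Called miRNAs numbered 65 to 98 and 81 to 106 in SHR against WKY, 57 to 87 and 64 to 81 in QDG against WKY, and 0 throughout in QDG against SHR. With the replicate block, which rests on shared numbers alone, 93, 77 and 0 miRNAs were called in SHR against WKY, QDG against WKY and QDG against SHR. Deviations of same-numbered libraries from their group means correlated at -0.17 to 0.23, 0.0041 to 0.20 and -0.13 to 0.12 in the same order, over 0.1 in 2, 4 and 1 of 6 pairs, and 2, 3 and 0 of the 12 libraries correlated best with their own number. The numbers were therefore not taken as pairs, though all 6 correlations in QDG against WKY were positive. Correlations of the arms within groups kept their sign and stayed short of the threshold under both other scalings, and were not run with 1 library left out, since 5 libraries would remain. Depth limits the 5p arm, with 44 to 126 reads per library.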
